A study of Homo sapiens with 3 samples.

Results

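SLC7A11, the transporter that brings cystine into cells, was examined together with its partner chain SLC3A2, 6 further amino acid transporters, the transcription factor ATF4 and the asparagine synthetase ASNS. Each gene was read from the single row of the count table that carries its UniProt accession, and these 10 rows are a small part of the 213543 features in the table. The genes were chosen by accession with the measured counts of these libraries already known, so their values are a description and serve as support for nothing else. The accessions are Q9UPY5 (SLC7A11), P08195 (SLC3A2), Q01650 (SLC7A5), Q15758 (SLC1A5), Q9H2H9 (SLC38A1), Q96QD8 (SLC38A2), P30825 (SLC7A1), Q9UM01 (SLC7A7), P18848 (ATF4) and P08243 (ASNS).

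RNA-seq was performed on THP-1, an established human monocytic leukemia line driven by the MLL-AF9 fusion, with and without LSD1 inhibition. The 0 h cells were the untreated control, and the 8 h and 24 h cells received 0.2 µM GSK-LSD1, an inhibitor of the histone demethylase LSD1, for those times. Total RNA was depleted of ribosomal RNA before library preparation, and each time was sequenced as 1 library, so the differences have no replicate check and no p-value was computed. The 0 h library totalled 1475938 counts, the 8 h library 1310912 and the 24 h library 1444011.

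SLC7A11 pairs with the heavy chain SLC3A2 to form system xc-, which exchanges intracellular glutamate for extracellular cystine and thereby feeds glutathione synthesis. ATF4 is translated preferentially when eukaryotic initiation factor eIF2 is phosphorylated, as happens under amino acid shortage, and it activates genes for amino acid uptake, amino acid synthesis and tRNA charging. SLC7A11 is a known target of both ATF4 and NRF2, the main transcription factor of the antioxidant response.

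ATF4 is known to bind a short DNA element called CARE, and NRF2 a short element called ARE, so the start sites of the genes were searched for the letters of both. RefSeq promoter windows on GRCh38.p14, which run from 250 bases before to 50 bases after a start site, were matched for 9 of the 10 genes, with 18 windows in all. SLC7A11 has no entry. The letters TGATGNAA (CARE), read on both strands, occurred in 5 of the 9 genes, namely SLC3A2, SLC1A5, SLC38A1, SLC7A1 and ASNS, and in 4.46% of the 27305 genes with a window. By window, this was 5 of 18, against 3.62% of all 35116 windows. The genes were grouped around ATF4 and include known ATF4 targets, so nothing is read from these shares, and the matches are shown only to give the letters and their place. In each line the capitals mark the match, with up to 10 bases on either side.
ASNS: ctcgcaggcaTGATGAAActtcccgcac
SLC38A1: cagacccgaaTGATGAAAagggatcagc
SLC7A1: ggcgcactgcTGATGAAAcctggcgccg
SLC1A5: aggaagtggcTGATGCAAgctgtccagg
SLC3A2: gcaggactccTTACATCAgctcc
The ASNS line is chr7:97872459-97872486 on the reverse strand, and its match begins 68 bases before a start site. The SLC38A1 line, chr12:46266503-46266530 on the reverse strand, has its match 4 bases before a start site within the gene. The SLC7A1 line, chr13:29595664-29595691 on the reverse strand, has its match 7 bases after the start site. The SLC1A5 line, chr19:46784894-46784921 on the reverse strand, has its match 97 bases before a start site within the gene. The SLC3A2 line, chr11:62881726-62881748 on the forward strand, holds the letters on the opposite strand, 37 bases after a start site within the gene.

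The letters TGACNNNGC (ARE), read on both strands, occurred in windows of 5 of the 9 genes as well, here SLC3A2, SLC7A5, SLC1A5, SLC7A1 and SLC7A7, and in 16.1% of all genes with a window. By window, the shares were 5 of 18 and 13.3% of all windows. The match of SLC3A2, the partner chain of SLC7A11, is given as an example. It lies at chr11:62881652-62881680 on the forward strand, 37 bases before a start site within the gene.
SLC3A2: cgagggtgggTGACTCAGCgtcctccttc
A match describes the letters in these windows and does not show binding of ATF4 or NRF2.

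The libraries were compared with markers of the cell type in the label. LYZ (lysozyme) held 655, 747 and 1773 counts in time order, the highest counts of the 9 monocytic and myeloid markers examined. ITGAM, the integrin chain CD11b, held 87, 120 and 339 counts, and the leukocyte phosphatase PTPRC (CD45) was at 402, 408 and 367 CPM. SPI1, the myeloid transcription factor PU.1, held 69, 87 and 102 counts. Of the 9 markers, 5 had at least 10 counts in a library, CD33 and CSF1R were at 0 in each library, and CD14 held 0, 5 and 6 counts. Summed over the 9 rows, the 0 h library held 1445 counts, the 8 h library 1501 and the 24 h library 2761. Markers of T cells, B cells, erythroid cells and epithelium were at 0 in each library, and the fibroblast gene COL1A1 held 0, 4 and 2 counts, so 6 of these 7 rows were at 0.

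At 24 h against 0 h, LYZ had a log2 ratio of 1.55 (95% counting interval 1.42 to 1.68) and ITGAM of 2.08 (1.73 to 2.43). At 8 h their log2 ratios were 0.45 (0.30 to 0.61) and 0.73 (0.32 to 1.14), and SPI1 was at 0.60 (0.12 to 1.07) and 0.68 (0.22 to 1.14) at 8 h and 24 h. PTPRC, with 0.02 (−0.15 to 0.19) and −0.13 (−0.30 to 0.04), and MPO, with 0.35 (−0.69 to 1.39) and 0.20 (−0.84 to 1.24), did not differ beyond counting error, although with total counts in place of TMM the interval of PTPRC at 24 h lay below 0. Of the 5 markers with enough counts, 3 thus had an interval above 0 in both treated libraries, in which SLC7A11, described next, was lower, and 2 were more than 2-fold higher at 24 h. Over all features, the interval lay above 0 for 11.7% at 8 h and 13.0% at 24 h, and 6.19% were more than 2-fold higher at 24 h. The part of this difference in the values of the transporters was not tested.

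SLC7A11 had a count of 254 in the 0 h library, 78 in the 8 h library and 64 in the 24 h library. In normalized terms, this was 165 CPM (counts scaled to library size with TMM factors) at 0 h, 60.9 CPM at 8 h and 45.1 CPM at 24 h. The untreated library was the high one, and both treated libraries were low. SLC7A11 was 2.71-fold lower at 8 h than at 0 h, a log2 ratio of −1.44 (−1.83 to −1.07), and 3.67-fold lower at 24 h, a log2 ratio of −1.88 (−2.29 to −1.47). These are exact Clopper-Pearson 95% intervals of the ratio. They account for counting error alone, because each time had 1 library, and they compare libraries, not conditions. PCR copies were not marked by molecular identifiers, and where copies were counted as separate reads the intervals are too narrow. The treated libraries differed from each other by a log2 ratio of −0.43 (24 h against 8 h, −0.93 to 0.06), so a difference between them was not detectable at this depth. In bulk RNA, fewer cells with a transcript and less transcript per cell cannot be told apart.

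**Figure D1:**
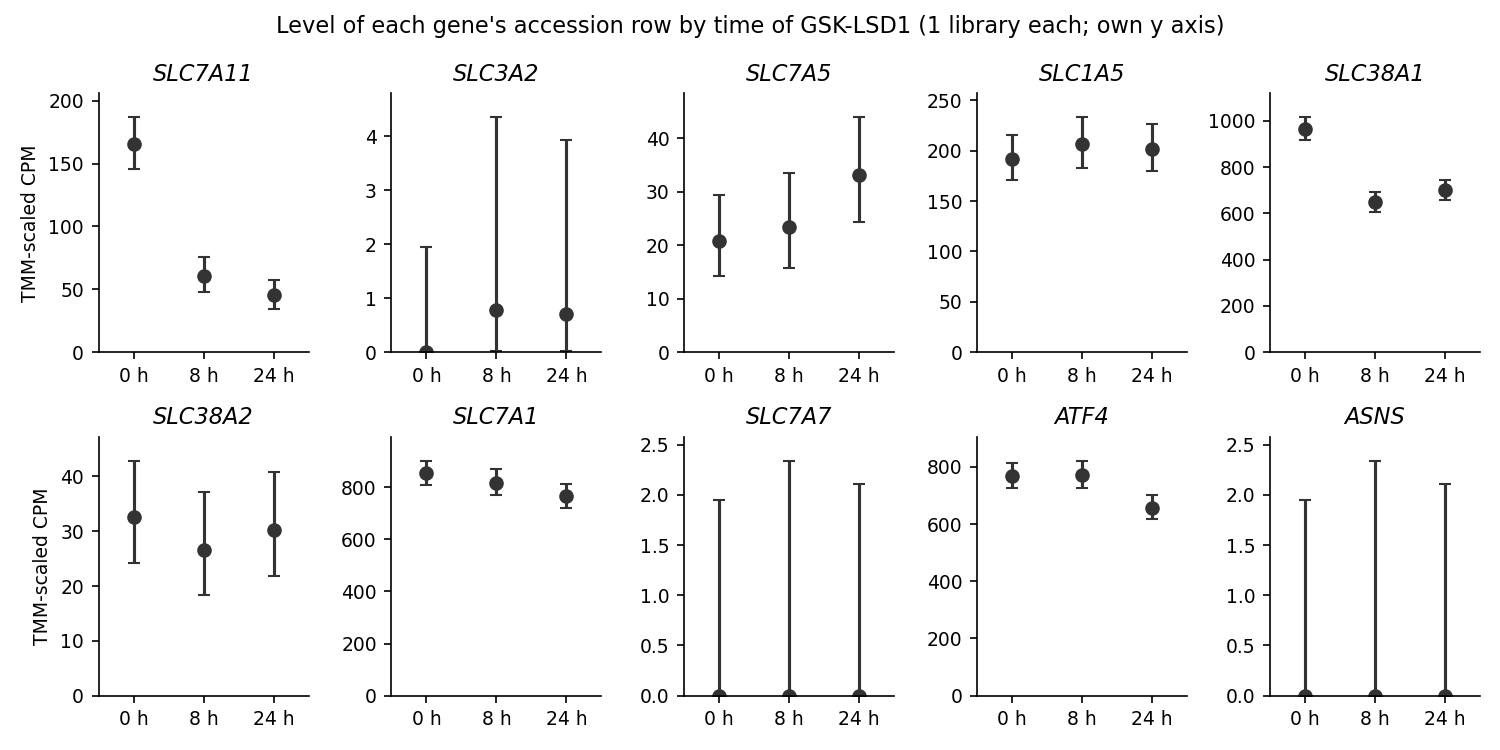
TMM-scaled CPM of each gene's accession row (y axis, separate for each gene and starting at 0) in the 0 h, 8 h and 24 h libraries (x axis, 1 library each). Points are values and bars are exact 95% Poisson intervals, except that a count of 0 has a bar up to 3 counts, the limit used in the text. SLC7A11 is at 165 CPM at 0 h and at 60.9 and 45.1 CPM in the treated libraries, and the rows of SLC3A2, SLC7A7 and ASNS hold at most 1 count.

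Among the 4218 features that reached 50 counts in any library, the log2 difference of SLC7A11 was the 16th lowest at 8 h against 0 h and the 4th lowest at 24 h against 0 h. Both comparisons use the same 0 h library, so they are not independent of each other. Over the 9609 features that reached 10 counts, where small counts give wide differences, its ranks were 187 and 59.

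The row closest to SLC7A11 in its pair of log2 differences from 0 h, searched over the same 4218 features, was P10721, at a distance of 0.114 on the log2 scale over the 3 libraries. P10721, the accession of the receptor tyrosine kinase KIT, held 136, 38 and 34 counts in time order. The next was Q6LES2, with 59, 19 and 14 counts at a distance of 0.129. P10721 and Q6LES2 reached the minimum count of this search only in the 0 h library. A lower count in the treated libraries can therefore be partly built into their selection, and nothing is read from their closeness to SLC7A11. The 5 closest rows lay within 0.388. The distance is a description of 3 libraries that were also used to find these rows.

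SLC7A11 lies at chr4:138164097-138242349 on the reverse strand of GRCh38 and has 2 transcripts in GENCODE, 1 of them coding. Of the 9645 exon bases in its 12 exons, 91.0% are shared with no other coding transcript of the gene and with no transcript that has its own row. The remaining 8.97% overlap the antisense gene SLC7A11-AS1, whose 4 rows were at 0 in each library. Whether counting used strand is not given in the sources used here, so reads from SLC7A11 and its antisense gene cannot be told apart on the shared bases.

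SLC3A2, the heavy chain (CD98) that carries SLC7A11, SLC7A5 and SLC7A7 to the membrane, held 0 counts at 0 h and 1 count in each treated library under P08195. The count of 0 at 0 h allows up to 3 counts (about a one-sided 95% limit), which is 1.95 CPM, and no ratio was computed from these counts. The 10 SLC3A2 rows named by transcript are annotated as retained introns or without a defined coding sequence. All of their counts lay in 4 retained-intron rows, which are not annotated as coding. Whether these rows also hold reads from exons shared with the coding mRNA was not tested. The 10 rows summed to 28, 29 and 28 counts, with log2 ratios of 0.31 (−0.49 to 1.12) at 8 h and 0.11 (−0.70 to 0.92) at 24 h against 0 h. SLC3A2 lies at chr11:62856004-62888880 on the forward strand, has 20 coding transcripts among 41, and shares all of the exon bases of its reference transcript with other coding transcripts and 70.7% with transcripts that have rows of their own.

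The other partners of SLC3A2 were also read at low depth. SLC7A5 (LAT1), which exchanges large neutral amino acids, held 32, 30 and 47 counts in time order. Its log2 ratio was 0.17 (−0.60 to 0.93) at 8 h and 0.67 (−0.01 to 1.36) at 24 h against 0 h, and both intervals include 0. SLC7A7, the light chain of the exchanger of cationic and neutral amino acids, was at 0 in each library under Q9UM01, for which the same limit of 3 counts is 1.95, 2.34 and 2.11 CPM in time order, and its 5 transcript rows held 1, 0 and 2 counts. No ratio could be computed for the accession rows of SLC3A2 and SLC7A7, and for SLC7A5 no difference was detectable at this depth.

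Among the glutamine and neutral amino acid transporters, SLC38A1 had intervals off 0 against 0 h and SLC38A2 and SLC1A5 did not, and differences between the genes were not tested. SLC38A1 (SNAT1), a sodium-coupled importer of glutamine and other neutral amino acids, held 1484 counts in the untreated library, 829 after 8 h and 995 after 24 h. It was 1.49-fold lower at 8 h, a log2 ratio of −0.58 (−0.70 to −0.45), and 1.38-fold lower at 24 h, a log2 ratio of −0.46 (−0.58 to −0.35). As for SLC7A11, the 0 h library was the high one, and the treated libraries differed by a log2 ratio of 0.11 (−0.02 to 0.25). SLC38A2 (SNAT2), a related transporter that amino acid starvation is known to induce, held 50, 34 and 43 counts, with log2 ratios of −0.29 (−0.97 to 0.36) and −0.10 (−0.73 to 0.51). Its 10 transcript rows, which are also retained introns or lack a defined coding sequence, summed to 13, 16 and 14 counts. They gave 0.56 (−0.59 to 1.74) at 8 h and 0.22 (−0.98 to 1.43) at 24 h against 0 h, and −0.34 (−1.49 to 0.79) at 24 h against 8 h, where the accession row gave 0.19 (−0.49 to 0.88). The sign thus differed between the kinds of row in all 3 comparisons, and each interval included 0. SLC1A5 (ASCT2), an exchanger of glutamine and small neutral amino acids, held 295, 265 and 287 counts, or 192, 207 and 202 CPM. Its log2 ratios were 0.11 (−0.14 to 0.35) and 0.07 (−0.17 to 0.31).

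SLC7A1 (CAT1), the carrier of arginine and lysine, held 1313 counts in the untreated library, 1046 after 8 h and 1086 after 24 h. The log2 ratio was −0.07 (−0.18 to 0.05) at 8 h and −0.16 (−0.28 to −0.04) at 24 h. With total counts the interval at 8 h also lay below 0. The difference at 24 h exceeded counting error but was small beside that of SLC7A11.

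ATF4 held 1181, 989 and 934 counts in time order, or 769, 772 and 658 CPM. The 0 h and 8 h libraries did not differ beyond counting error, with a log2 ratio of 0.01 (−0.12 to 0.13), and the 24 h library was lower than both, with log2 ratios of −0.23 (−0.35 to −0.10) against 0 h and −0.23 (−0.36 to −0.10) against 8 h. These are transcript counts, whereas ATF4 is known to be controlled largely at translation, which RNA-seq does not measure. ASNS, which makes asparagine from aspartate and glutamine and is a classical target of ATF4, was at 0 in each library under P08243. Its 3 transcript rows held 0, 0 and 1 counts, and 99.5% of the exon bases of its reference transcript overlap rows of the gene ENSG00000284707, which held 3, 2 and 2 counts.

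**Figure D2:**
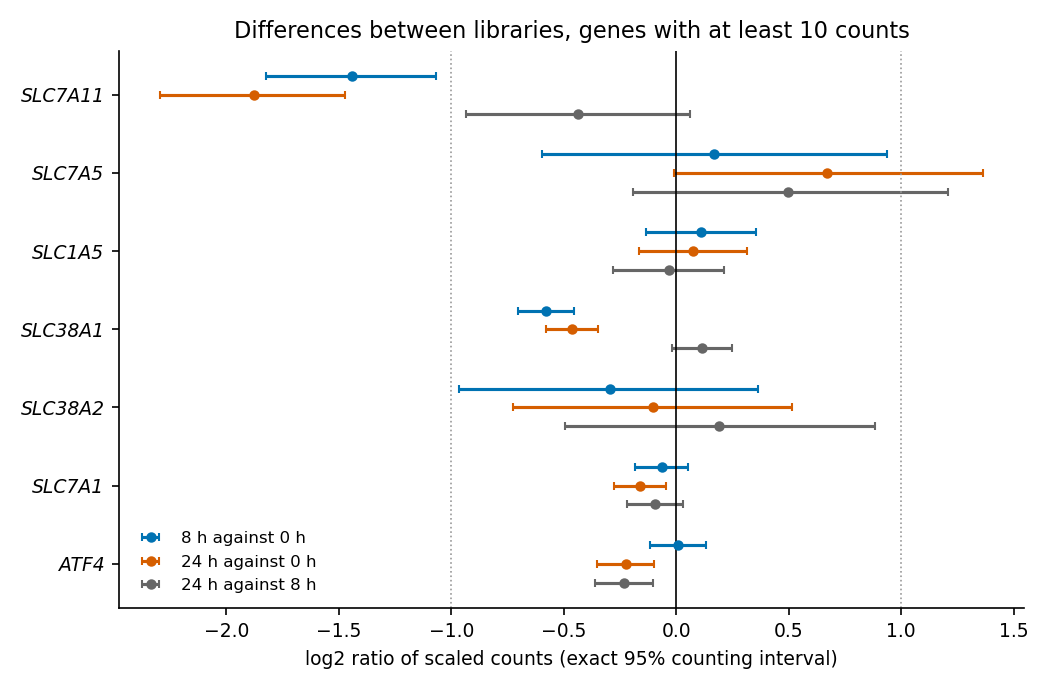
Log2 ratio of scaled counts (x axis) for the 7 genes with at least 10 counts in a library (y axis). Points are single-library ratios, bars are exact 95% counting intervals, colours give the comparison and dotted lines mark a 2-fold difference. SLC7A11 lies beyond the line at 8 h (−1.44) and 24 h (−1.88) against 0 h, and SLC38A1 lies between the line and 0.

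Of the 10 genes, 7 had at least 10 counts in a library and 3 (SLC3A2, SLC7A7 and ASNS) did not. At 8 h against 0 h, 1 gene, SLC7A11, was more than 2-fold lower and 0 were more than 2-fold higher. Over all 9609 features that passed the same minimum, 6.02% were more than 2-fold lower and 4.51% more than 2-fold higher, and among the 4218 with at least 50 counts 1.42% were more than 2-fold lower. The counting interval lay below 0 for 2 genes (SLC7A11 and SLC38A1) and above 0 for 0 genes, where 9.71% of all features lay below and 11.7% above.

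At 24 h against 0 h, SLC7A11 was again the 1 gene more than 2-fold lower, and 0 were more than 2-fold higher. The shares over all features were 5.58% lower and 6.19% higher, and 1.80% were lower among those with at least 50 counts. The interval lay below 0 for 4 genes (SLC7A11, SLC38A1, SLC7A1 and ATF4) and above 0 for 0 genes, beside 12.6% of all features below and 13.0% above.

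At 24 h against 8 h, 0 genes were past 2-fold in either direction, and the interval lay below 0 for 1 gene (ATF4). Over all features, 1.97% were more than 2-fold lower, 4.03% more than 2-fold higher, 5.58% had an interval below 0 and 4.87% above. Since the genes were chosen with these comparisons known, nothing is read from their counts against these shares.

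**Figure D3:**
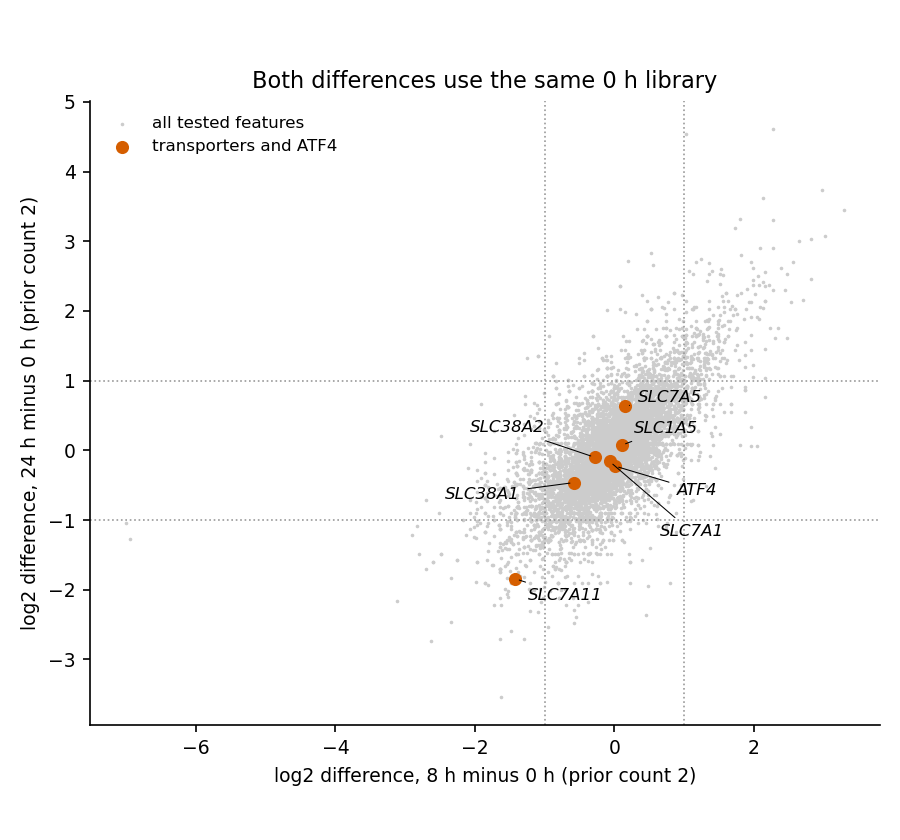
Log2 difference at 8 h minus 0 h (x axis) and at 24 h minus 0 h (y axis), from log2 CPM with a prior count of 2, for 9609 features (grey) and the 7 genes with enough counts (orange). Both axes subtract the same 0 h library, so they are not independent, and dotted lines mark 2-fold. SLC7A11 lies past 2-fold on both axes.

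The rows of SLC3A2, SLC7A7 and ASNS belong to genes with many overlapping transcripts. The reference transcript of SLC7A7 shares 71.3% of its exon bases with transcripts that have their own rows and all of them with other coding transcripts. ATF4, with 1181 counts at 0 h, shares all of its exon bases with other coding transcripts but 0% with transcripts that have their own rows, and for SLC7A1, which was also well counted, 87.4% of exon bases are shared with neither. How reads shared between features were treated is not given in the sources used here, and the part of shared exons in the low counts was not tested. Genes in wide use by dividing cells, such as the synthetases GARS1 and IARS1 and the glutathione peroxidase GPX4, were also at 0 in each library under their accessions. A row at 0 is therefore given here only as listed at 0, not as a gene without expression.

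**Figure D4:**
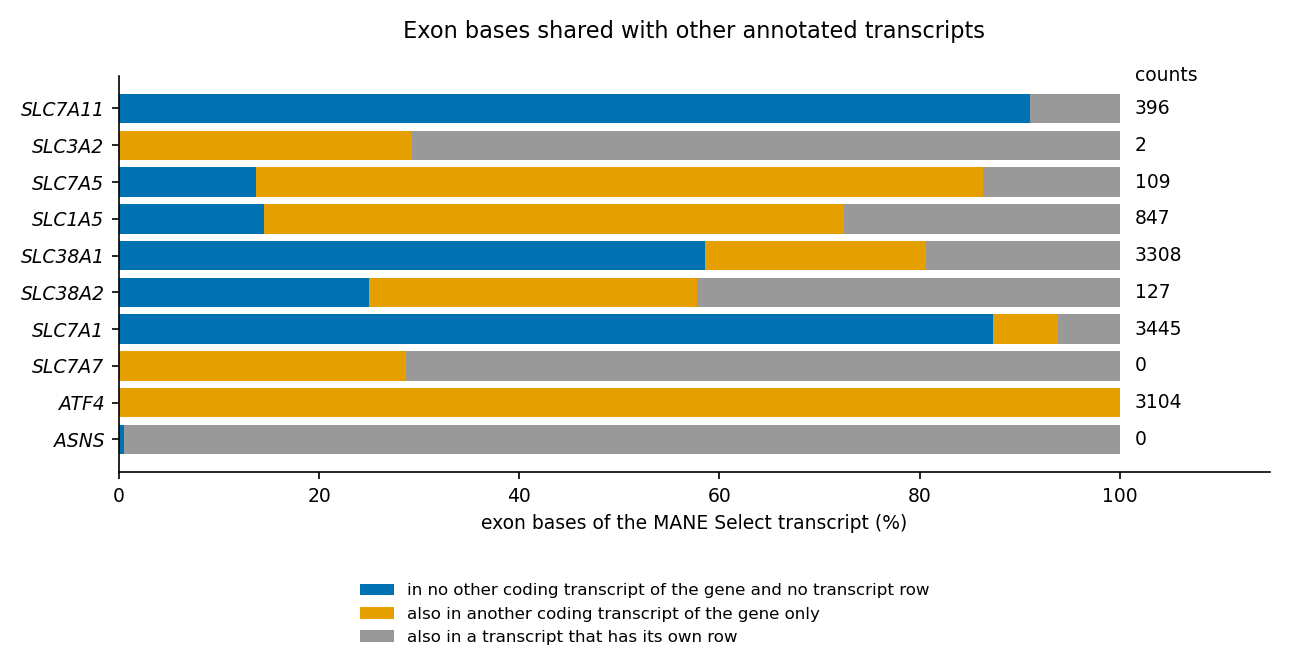
Share of the exon bases of each gene's MANE Select transcript (x axis, percent) that is shared with no other transcript considered (blue), with another coding transcript of the gene only (orange) or with a transcript that has its own row (grey). Numbers at the right are counts summed over the 3 libraries. SLC7A11 has 91.0% in blue, whereas SLC3A2, SLC7A7 and the well-counted ATF4 have none.

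The other genes around the cystine and ATF4 axis were taken from 5 lists, and for each list the median log2 difference is set beside that of all 9609 features, which was −0.01 at 8 h and −0.01 at 24 h against 0 h. Of 17 genes of glutathione metabolism and the NRF2 response, 15 had a row, 5 of these were at 0 in each library and 6 had at least 10 counts. At 24 h against 0 h, 1 of the 6 was more than 2-fold higher, NQO1, a quinone reductase and common readout of NRF2, which held 44, 62 and 101 counts, a log2 ratio of 1.31 (0.79 to 1.86). At 8 h its log2 ratio was 0.76 (0.18 to 1.35). Over all features, 6.19% were more than 2-fold higher at 24 h, and the interval lay above 0 for 11.7% at 8 h and 13.0% at 24 h, so a count of 1 or 2 genes is no result about the list. ME1, the malic enzyme that makes NADPH, was the other gene with an interval above 0, and held 154, 214 and 253 counts, with log2 ratios of 0.74 (0.43 to 1.05) and 0.83 (0.53 to 1.13).

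The other 4 genes of this list with enough counts did not differ beyond counting error with TMM scaling. GCLM, the modifier subunit of the rate-limiting enzyme of glutathione synthesis, held 254, 208 and 202 counts, with log2 ratios of −0.03 (−0.30 to 0.24) and −0.22 (−0.49 to 0.06). BACH1, a repressor at NRF2 target genes, held 264, 221 and 255 counts, with log2 ratios of 0.01 (−0.26 to 0.27) and 0.06 (−0.19 to 0.32). The transcript of NRF2 itself, NFE2L2, held 71, 41 and 48 counts, with log2 ratios of −0.53 (−1.12 to 0.05) and −0.45 (−1.01 to 0.10). With total counts in place of TMM, the intervals of NFE2L2 at 8 h and of GCLM at 24 h lay below 0. The list median was 0.17 at 8 h and 0.14 at 24 h. GCLC and HMOX1 were not analysed here.

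Of 15 genes of the integrated stress response, the pathway that raises ATF4 through eIF2, 14 had a row, 3 were at 0 in each library and 10 had at least 10 counts. At 8 h against 0 h, 1 of the 10 was more than 2-fold higher, beside 4.51% of all features. This was the amino acid sensing kinase EIF2AK4 (GCN2), which rested on 7, 16 and 12 counts. EIF2AK4 passed the minimum of 10 counts only through the treated libraries, so nothing is read from its ratio or its interval. The interval lay above 0 for 3 genes at 8 h, EIF2AK4, EIF2AK1 and PPP1R15A, beside 11.7% of all features. EIF2AK1 (HRI), a kinase of eIF2, held 250, 259 and 313 counts, with log2 ratios of 0.31 (0.06 to 0.57) and 0.44 (0.19 to 0.68), and with total counts its interval at 8 h included 0. PPP1R15A (GADD34), the inducible subunit that directs a phosphatase to eIF2, held 65, 93 and 89 counts, with log2 ratios of 0.78 (0.31 to 1.26) and 0.57 (0.09 to 1.05). Its constitutive relative PPP1R15B held 1515, 1194 and 1278 counts, with log2 ratios of −0.08 (−0.19 to 0.03) and −0.13 (−0.24 to −0.02). CEBPG, a dimer partner of ATF4, held 560, 483 and 548 counts, with log2 ratios of 0.05 (−0.13 to 0.23) and 0.08 (−0.09 to 0.25). ATF5, a related factor, held 161, 155 and 100 counts and was lower at 24 h against 0 h, with a log2 ratio of −0.57 (−0.95 to −0.20). At 24 h, 2 genes had an interval above 0 and 2 below, beside 13.0% and 12.6% of all features, and the list median was 0.05 at 8 h and −0.10 at 24 h.

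Of 17 targets of ATF4 outside transport and tRNA charging, 16 had a row, 4 were at 0 in each library and 8 had at least 10 counts. None of the 8 was past 2-fold at 8 h or 24 h against 0 h. VLDLR, the very low density lipoprotein receptor, was the gene with an interval below 0 at 8 h, and held 194, 112 and 90 counts, with log2 ratios of −0.53 (−0.88 to −0.19) and −0.99 (−1.37 to −0.63), the latter past 2-fold with total counts in place of TMM. TRIB3, a pseudokinase that feeds back on ATF4, joined it at 24 h, and held 118, 86 and 70 counts, a log2 ratio of −0.64 (−1.09 to −0.20). PSAT1, an enzyme of serine synthesis, held 445, 351 and 415 counts, with log2 ratios of −0.08 (−0.29 to 0.13) and 0.01 (−0.18 to 0.21). ALDH18A1, an enzyme of proline synthesis, held 169, 150 and 187 counts, with log2 ratios of 0.09 (−0.24 to 0.42) and 0.26 (−0.05 to 0.57). The list median was 0.08 at 8 h and 0.04 at 24 h, so VLDLR and TRIB3 were lower in a list whose middle lay near 0. Over all features, the interval lay below 0 for 9.71% at 8 h and 12.6% at 24 h.

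All 20 cytosolic aminoacyl-tRNA synthetases listed, which charge tRNAs with amino acids and include many ATF4 targets, had a row, but 8 were at 0 in each library and 9 had at least 10 counts. None of the 9 was past 2-fold. AARS1 held 677, 751 and 786 counts and was higher in both treated libraries, with log2 ratios of 0.41 (0.26 to 0.56) and 0.33 (0.18 to 0.48). EPRS1 held 764, 726 and 785 counts, with log2 ratios of 0.19 (0.04 to 0.34) and 0.15 (0.01 to 0.30), and with total counts both of its intervals included 0. FARSB and NARS1 had intervals below 0 at 24 h, and NARS1 held 152, 100 and 92 counts, a log2 ratio of −0.61. Over all features, intervals lay above 0 for 11.7% at 8 h and 13.0% at 24 h, and below 0 for 12.6% at 24 h. The synthetases thus lay on both sides of 0, with a median of −0.07 at 8 h and 0.03 at 24 h.

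Of 23 other amino acid transporters, each with a row, 8 were at 0 in each library and 9 had at least 10 counts. At 8 h against 0 h, 1 of the 9 was more than 2-fold lower, the arginine carrier SLC7A2, which held 31, 11 and 46 counts, beside 6.02% of all features. At 24 h against 0 h, 1 was more than 2-fold higher, the lysosomal transporter SLC38A7, which held 14, 17 and 30 counts, beside 6.19% of all features. These counts of 1 are no result about the list. SLC36A1, a proton-coupled exporter of small amino acids from lysosomes, held 196, 138 and 171 counts, with log2 ratios of −0.24 (−0.57 to 0.08) and −0.08 (−0.39 to 0.22). Its relative SLC36A4 held 127, 71 and 81 counts and was lower in both treated libraries, with log2 ratios of −0.58 (−1.02 to −0.15) and −0.54 (−0.96 to −0.12). SLC1A4 (ASCT1), a neutral amino acid exchanger, held 31, 43 and 48 counts and lay on the other side of 0, with log2 ratios of 0.73 (0.04 to 1.45) and 0.74 (0.06 to 1.44), although with total counts both intervals included 0. SLC43A1, a carrier of large neutral amino acids, held 85, 51 and 52 counts, with a log2 ratio of −0.60 (−1.12 to −0.08) at 24 h and an interval that included 0 at 8 h. With total counts in place of TMM, the intervals of SLC36A1 and SLC43A1 at 8 h also lay below 0. At 8 h with TMM, 1 interval lay above 0 and 2 below, beside 11.7% and 9.71% of all features, and at 24 h 2 lay above and 2 below, beside 13.0% and 12.6%. The median was 0.01 at 8 h and 0.52 at 24 h, the latter resting on rows with few counts.

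**Figure D5:**
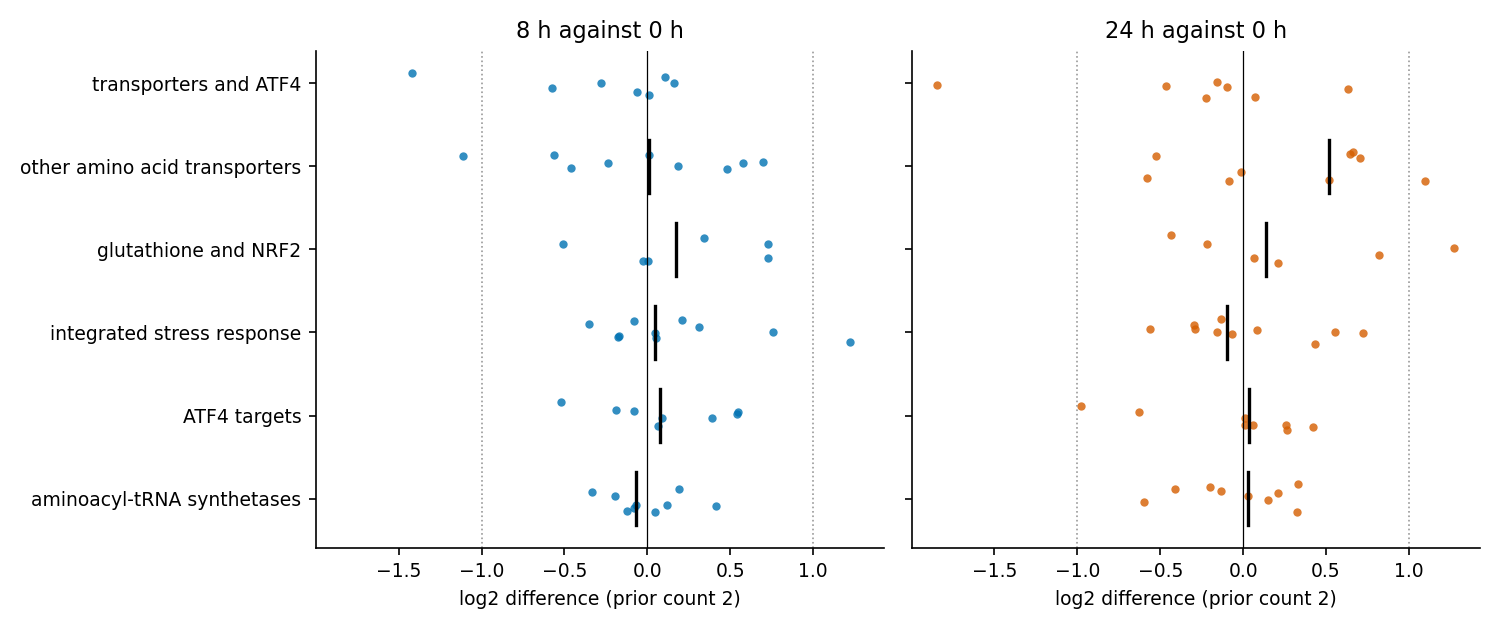
Log2 difference (x axis, from log2 CPM with a prior count of 2) of each gene with at least 10 counts in a library, by list (y axis), at 8 h (left) and 24 h (right) against the same 0 h library. Points are genes, spread vertically for legibility, black bars are list medians and dotted lines mark 2-fold. At 24 h SLC7A11 is the lowest point in any of the rows, and NQO1 and SLC38A7 are the points past 2-fold higher.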

How the data were processed

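The data are RNA-seq of untreated THP-1 cells and of cells given GSK-LSD1 for 8 h or 24 h, with a single library each. The values that the authors deposited are raw read counts for each feature, not normalized. The submitters' processing notes name fastp, STAR and hg38, and the methods name the Seq2science pipeline. The counting tool, annotation, strand setting and treatment of shared reads are not given in the sources used here.

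The genes and lists were chosen with earlier results of these data known. Symbols were paired with UniProt accessions by the rule that chose the 10 genes and, for list genes and KIT, from UniProt knowledge, since the files do not pair them. Exon overlaps used GENCODE v44 on GRCh38, and promoters came from RefSeq.

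TMM scaling was done in edgeR 4.0.16 (R 4.3.3), with factors of 1.04, 0.977 and 0.984. Features needed at least 10 counts in a library. Log2 differences used a prior count of 2, and ratios of single genes used none. No ratio was given where a count was at or under 3. Intervals were computed with scipy 1.17.1 in Python 3.11.15. The calculation was tested on counts simulated with Poisson error alone, the error that the intervals assume. That test checks the code and says nothing about variation between replicate libraries. From each list, the text names genes past 2-fold from 0 h with at least 50 counts and the 2 with the highest summed counts. ME1, NFE2L2, EIF2AK1, EIF2AK4, PPP1R15A, ATF5, VLDLR, TRIB3, FARSB, NARS1, SLC7A2, SLC38A7, SLC1A4, SLC43A1, GARS1, IARS1 and GPX4 are not named by this rule. The same holds for EIF2AK2 and CEBPB and for the markers SPI1, MPO, CD14, CD33, CSF1R and COL1A1. All of these were picked with their values in view. Alternatives were DESeq2 1.42.0 size factors, total counts, other filters, prior counts, thresholds and interval levels, and rows named by transcript.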

Additional observations from a re-analysis of the deposited data

How the results depend on the processing

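SLC7A11 was more than 2-fold lower at 8 h and at 24 h against 0 h under DESeq2 size factors, total counts, each filter and each prior count. With a log2 threshold of 2, the genes past it numbered 0 at 8 h and 0 at 24 h, in place of 1 and 1. Of 51 alternative log2 ratios of the 7 genes with a ratio, 50 stayed within the counting interval, and SLC38A2 at 8 h from its transcript rows did not (0.56 against −0.29). With total counts, the median of all features was −0.10 at 8 h and −0.09 at 24 h, and the genes with an interval off 0 at 8 h became 3 in place of 2, through SLC7A1.

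The list counts under other scalings were chosen after seeing the data, and 85 of 96 stayed within 1.5 times. With total counts, intervals below 0 at 8 h became 1 in place of 0 for glutathione and NRF2 (NFE2L2), 3 in place of 0 for the stress response (EIF2AK2, PPP1R15B and CEBPB), 2 in place of 0 for synthetases (FARSB and NARS1) and 4 in place of 2 for other transporters (adding SLC36A1 and SLC43A1). At 24 h they became 1 in place of 0 for glutathione and NRF2 (GCLM) and for the monocyte markers (PTPRC). Intervals above 0 became 1 in place of 2 for synthetases at both times, without EPRS1, and 0 in place of 1 at 8 h and 1 in place of 2 at 24 h for other transporters, without SLC1A4. VLDLR became the 1 ATF4 target more than 2-fold lower at 24 h, in place of 0.

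Over all features, the comparison of 8 h with 0 h gave 433 past 2-fold higher and 578 lower, that of 24 h with 0 h gave 595 and 536, and that of 24 h with 8 h gave 387 and 189. With total counts these were 358 and 670, 547 and 631, and 387 and 187, so at 24 h against 0 h lower features then outnumbered higher ones. Without a filter these were 3277 and 2319, 2474 and 1999, and 1865 and 2778. With at least 50 counts they were 88 and 60, 132 and 76, and 24 and 5. With a log2 threshold of 2 they were 39 and 29, 94 and 32, and 20 and 5. With a prior count of 5, the first comparison gave 255 and 294, the second 294 lower, and the third 156 and 78, and with a prior count of 0.5 the third gave 293 lower. No paired analysis was possible because each time had 1 library. Depth limits the genes with few counts, such as SLC7A5 and SLC38A2.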
